A study of Mus musculus with 3 samples.

Results

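Cytosolic ribosomal protein genes encode the proteins that join ribosomal RNA in the large and small subunits of the cytosolic ribosome. They were taken here by symbol. A member had to have a protein_coding transcript and a symbol of Rpl or Rps plus a number, with an optional letter, x or l suffix, or be Rplp0, Rplp1, Rplp2 or Rpsa. Rps6k kinases and symbols with -ps, which mark pseudogenes, were left out. The rule gave 81 genes of 55536 annotated genes, 50 of the large subunit and 31 of the small subunit. They lay on 19 chromosomes, with 14 on chromosome 7.

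The cells were macrophages grown from the bone marrow of C57BL/6J mice and stimulated for 10 min with Lipid A at 100 ng/ml. Lipid A is the lipid anchor of bacterial lipopolysaccharide and a ligand of the receptor TLR4. RNA of the chromatin fraction, which holds transcripts still being made or processed, was depleted of ribosomal RNA and sequenced. There was 1 group of 3 biological replicates, with 1 µg of starting RNA in replicate 1, 250 ng in replicate 2 and 500 ng in replicate 3. All 3 carry the same donor entry, so their spread may be technical, and starting amount and replicate cannot be told apart. No unstimulated library was used here, so none of the values below is a response to Lipid A.

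Ribosomal proteins are needed in near equal numbers, 1 copy of most per ribosome. Their messenger RNAs typically begin with a C followed by a run of pyrimidines, the 5′ terminal oligopyrimidine (TOP) tract, through which mTOR signalling and the protein Larp1 control their translation. Many of their introns house small nucleolar RNAs (snoRNAs), which guide the chemical modification of ribosomal RNA and are cut out of the spliced intron. Mammalian genomes also carry many processed pseudogenes copied from these messenger RNAs.

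Replicates 1, 2 and 3 had 15698066, 16005795 and 14386725 estimated counts on annotated genes. A count of 0 in them allows up to 3 counts, or 0.191, 0.187 and 0.209 CPM, for counting error only. All 6 macrophage markers were detected, and none of the 12 markers of T cells, B cells, neutrophils, fibroblasts, erythroid cells and mast cells reached a TPM of 1 in every library. CPM is a count scaled to the library total. TPM is the same on the transcript level, and divides a count by transcript length before scaling. Protein-coding genes held 31.7%, 25.3% and 22.2% of all TPM in replicates 1, 2 and 3, and this total enters each TPM. Scaled CPM, for which the library size was adjusted by edgeR's TMM method, is given where libraries are set against each other.

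The TOP tract was looked for in the annotated first bases of each gene's most abundant protein_coding transcript, in the GENCODE M21 transcripts on GRCm38. A C followed by 4 pyrimidines at the very start stood in 11 of 81 members, or 13.6%, against 2.23% of 21785 other protein-coding genes. Among 78 mitochondrial ribosomal protein genes it was 6.41%, and among 18 other TOP mRNAs of translation, such as elongation factors, 27.8%. Anywhere in the first 30 bases of the transcript, such a run was found in 58.0% of members and 33.1% of other protein-coding genes. The starts below are the first 25 bases, with the longest run of C and T in capitals. Shown are Rps24, Rpl4 and Rpl30, which have the longest runs led by a C at base 1, then Rps9, Rpl10 and Rpl3, which are among the 4 most abundant members, and Rpl3l and Rpl10l, which had almost no RNA here.
Rps24 (chr14:24490718-24490742, plus strand): CTCTTTTCCTCCTCTCCagctccgg
Rpl4 (chr9:64173375-64173399, plus strand): CTTTTCCTgtgggagcagccgggta
Rpl30 (chr15:34443198-34443222, minus strand): CCTTTCTCgctccccggccatcttg
Rps9 (chr7:3704038-3704062, plus strand): CTCTTTgtctcgggcctgagttcgt
Rpl10 (chrX:74270812-74270836, plus strand): ggaagataggccgCCTatataaggc
Rpl3 (chr15:80091844-80091868, minus strand): gcgggTCTTgacggaacccaaaaat
Rpl3l (chr17:24732685-24732709, plus strand): agtgCCCCaaatgtcctgaaaggct
Rpl10l (chr12:66284377-66284401, minus strand): gcggCTggcggtgggcacgcacggc
The run at base 1 was 17 bases long in Rps24, 8 in Rpl4 and in Rpl30, and 6 in Rps9. Rpl10, Rpl3, Rpl3l and Rpl10l had none. Runs led by a T were 12 bases long in Rpl34 and 9 in Rps25. An annotated start may lie some bases away from the start used in these cells, which were not mapped here.

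RefSeq promoters (GRCm38.p6, 250 bases before to 50 after the start) were matched for 61 members, 1 per gene, the one nearest to the GENCODE gene start. CCGGAAG on either strand, the core of the sites of ETS factors, stood in 24 of the 61, or 39.3%, against 9.09% of 26964 other promoters. AAGATGGC on either strand, the core of YY1 sites, stood in 6.56% of members and 2.84% of others. TATAAA on the gene strand stood in 8.20% of members and 8.92% of others. A C followed by 4 pyrimidines at the RefSeq start itself stood in 12 of the 61, or 19.7%, against 2.43%. Of those 12 only Rps10 and Rps21 also had it at the GENCODE start used above, so which members carry the tract depends on the annotated start. None of the 3 spelled motifs contains another, though CCGGAAG and AAGATGGC may overlap by AAG. A match is a description of the letters, not of a bound site.

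Nearly every member was present in chromatin RNA. Detection, meaning at least 1 TPM in each library, was reached by 77 of 81 members, against 10120 of 22028 protein-coding genes, or 45.9%. The members together took 0.158%, 0.151% and 0.126% of counts in replicates 1, 2 and 3, with a mean of 0.145% ± 0.0171 (SD, n = 3). Their median TPM was 18.04 ± 5.19 (SD, n = 3), against 0.728 ± 0.155 for all protein-coding genes. On the log2(TPM + 1) scale the median member stood 3.45 ± 0.28 above the median of other protein-coding genes (SD, n = 3). The difference was 1.31 ± 0.16 over genes that reached 0.1 TPM in at least 1 library, and 2.34 ± 0.25 with scaled CPM over all genes. The median member lay at percentile 82.6 of protein-coding genes by TPM, with percentiles taken in each library and then averaged. In bulk RNA, fewer cells and less RNA per cell cannot be told apart.

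The mitochondrial ribosome, built from a separate set of nuclear genes, gives a measure of how far the level belongs to ribosomal proteins in general. Of its 78 genes 75 were detected, and their median TPM was 4.81 ± 1.02 (SD, n = 3). The cytosolic members stood 1.69 ± 0.14 above them on the log2(TPM + 1) scale, and the difference was 1.84, 1.66 and 1.57 in replicates 1, 2 and 3. With scaled CPM in place of TPM it was 0.85 ± 0.19, and over protein_coding transcripts only it was 1.18 ± 0.10. It was above 0 in every library under each of these scales.

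**Figure D1:**
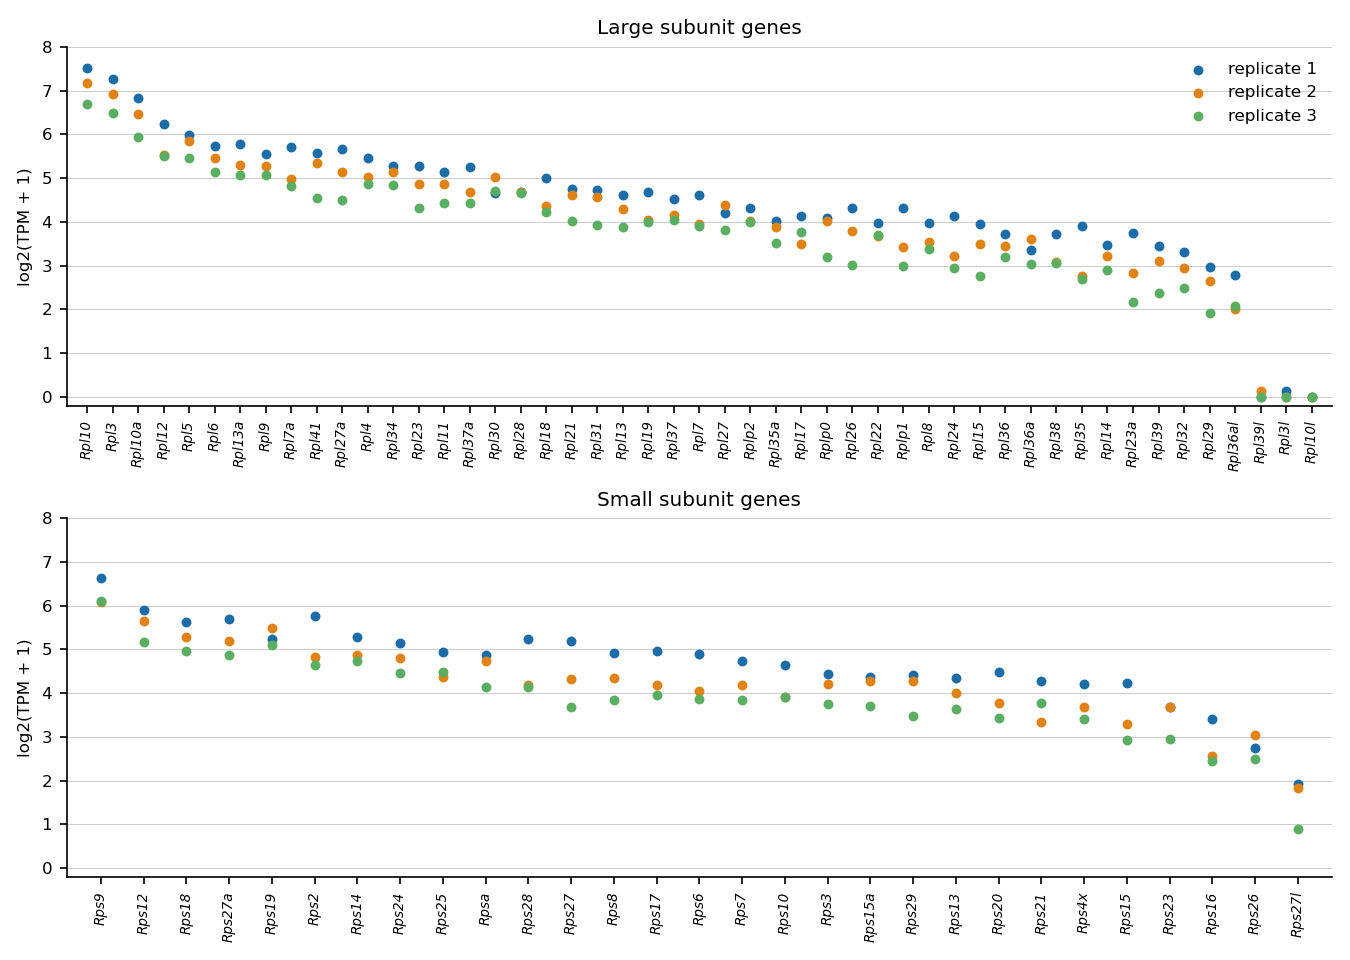
Level of the members in each library, as log2(TPM + 1), for large subunit genes (top) and small subunit genes (bottom), ordered by mean TPM. Points are single libraries. Rpl10, Rpl3 and Rpl10a stand highest, and Rpl39l, Rpl3l and Rpl10l lie at or near 0 in all 3 libraries.

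By TPM of the gene table, the 3 highest members were of the large subunit. Rpl10, which completes the large subunit late in its assembly, lies on the X chromosome (chrX:74270812-74273135, mm10) and had 182.6, 144.7 and 102.5 TPM in replicates 1, 2 and 3, a mean of 143 ± 40.04 (SD, n = 3). Rpl3, which lies near the peptidyl transferase centre, had 153, 120 and 89.4 TPM, and Rpl10a had 113, 86.8 and 60.7 TPM. In the small subunit Rps9 was highest with 98.6, 66.6 and 68.2 TPM. These 4 genes made up 22.0% of the summed mean TPM of the members. Their order was the same in replicates 1 and 2, and Rps9 passed Rpl10a in replicate 3. In the second table Rpl3 was above Rpl10, with means of 108.9 and 100.4 TPM, and Rps9 above Rpl10a, with 89.4 and 64.7 TPM, in all 3 libraries. On protein_coding transcripts alone Rps9 was highest of all members, at 30.9 ± 13.1 TPM, against 21.01 ± 8.02 for Rpl10 and 2.84 ± 0.71 for Rpl3 (SD, n = 3).

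Next in the gene table came Rpl12, part of the stalk base, at 54.7 ± 16.9 TPM. Rpl5, which with Rpl11 and 5S RNA forms the particle that binds Mdm2, was at 54.0 ± 10.0 TPM (SD, n = 3). Rpl11 itself was at 27.7 ± 6.84 TPM. Rps12 was at 47.7 ± 11.9, Rpl6 at 43.3 ± 8.87, Rpl13a at 41.8 ± 11.0 and Rpl9 at 39.0 ± 6.87 TPM. Rpl13a is known in human monocytes as a part of the complex that silences inflammatory messenger RNAs. Neighbours in this order differed by less than their spread over the 3 libraries. Set against each other within each library, Rpl5 was above Rps12, and Rps12 above Rpl6, in all 3. Rpl5 passed Rpl12 in replicate 2, and Rpl13a passed Rpl6 in replicate 1. The second table did not keep this order. By mean, Rpl13a was at 60.1 TPM there, Rpl5 at 47.4, Rpl6 at 46.1, Rpl12 at 39.1 and Rpl9 at 25.5. Rps12 had 33.2, 30.2 and 26.6 TPM in replicates 1, 2 and 3 of that table, below Rpl6 and Rpl12 in each. Rps19 at 59.6 and Rps14 at 53.7 TPM were among the members above Rpl12 there.

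Other members with known extra roles were spread over the middle of the range in the gene table. Rps27a, made as a fusion with ubiquitin, was at 38.4 ± 11.6 TPM. Rps19, the gene most often mutated in human Diamond-Blackfan anaemia, was at 37.9 ± 5.41 TPM. Rpsa, also known as the laminin receptor, was at 23.5 ± 6.13 TPM. Rps6, the substrate of S6 kinase downstream of mTOR, was at 19.3 ± 8.19 TPM. Rps3, which also acts in NF-κB complexes, was at 16.8 ± 4.10 TPM (SD, n = 3 for each). For the stalk proteins, which recruit elongation factors, the values were 13.1 ± 4.34 TPM for Rplp0, 11.9 ± 6.24 for Rplp1 and 16.4 ± 2.28 for Rplp2. Rplp2 was close to Rps3 by mean, and above it in replicate 3, at 14.9 against 12.4 TPM. In the second table Rplp2 was at 26.3 TPM, above Rps6 at 21.5, Rpsa at 20.2 and Rps3 at 14.8.

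The lowest members without an l suffix were Rpl29 at 4.94 ± 2.04, Rps26 at 5.85 ± 1.31, Rps16 at 6.30 ± 2.87, Rpl32 at 6.73 ± 2.16 and Rpl39 at 7.23 ± 2.88 TPM (SD, n = 3). Rps26 had 5.72, 7.22 and 4.61 TPM in replicates 1, 2 and 3, and Rpl29 had 6.81, 5.25 and 2.77. In all, 6 members had a mean TPM over 50, 60 lay between 10 and 50, 12 between 1 and 10, and 3 under 1. Over the 76 members without an l suffix, chromatin RNA levels lay between 4.94 and 143 TPM, with a coefficient of variation of 91.5%. The order was alike in the 3 libraries, with Spearman's rho between 0.943 and 0.959 over 81 genes that share length and annotation. The median log2(TPM + 1) of the large subunit members was lower than that of the small subunit members by less than its spread, at -0.14 ± 0.19 (SD, n = 3), and in the second transcript table the sign was the other way. The low end also differed in that table. Rps26 at 7.38, Rpl23a at 8.07, Rpl29 at 8.40, Rpl32 at 9.49 and Rpl35 at 9.98 TPM were lowest without an l suffix there. Rps16 was at 13.2 and Rpl39 at 23.1.

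In the gene table, the paralogs with an l suffix form the low end. Rpl10l, an intronless copy of Rpl10 expressed in male germ cells of the mouse, had 0 counts in all 3 libraries. Rpl3l, the striated muscle form of Rpl3, had 1 count in replicate 1 and 0 in the others. Rpl39l, the germ-cell form of Rpl39, had 1 count in replicate 2 and 0 in the others. The parents Rpl10, Rpl3 and Rpl39 had mean counts of 1138, 2430 and 35.3. Rps27l, known as a p53 target, had 2.77, 2.56 and 0.85 TPM, against 35.5, 19.2 and 11.8 TPM for Rps27. Rpl36al had 5.86, 3.04 and 3.24 TPM, against 9.32, 11.1 and 7.20 TPM for Rpl36a. Each of the 5 paralogs was below its parent in all 3 libraries. In the second table Rps27l, at a mean of 10.6 TPM, was above Rps26 at 7.38 and Rpl29 at 8.40. It was thus not below all members without an l suffix there, but stayed under their lower quartile of 16.6 TPM.

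Most of the signal of the members lay in transcript models that keep an intron. GENCODE labels such models retained_intron, and 62 members have at least 1. Of the members' TPM, 56.5% ± 2.54 fell on retained_intron models and 31.8% ± 2.42 on protein_coding models (SD, n = 3). For other protein-coding genes the shares were 38.0% ± 1.79 and 48.8% ± 1.70. The median share per gene was 60.8% ± 4.20 in 61 members with such a model and a TPM of 1 or more, against 46.5% ± 2.37 in 6357 other protein-coding genes (SD, n = 3). The members were above the others by 11.6, 12.9 and 18.6 percentage points in replicates 1, 2 and 3. More than 50% of TPM was on such models in 42 of the 61 members, against 44.0% of the other genes. High shares were not particular to the members. They ran from 22.8% to 88.7% among other TOP mRNAs and from 5.97% to 91.7% among mitochondrial ribosomal protein genes with such a model. The members have 172 retained_intron models beside 229 protein_coding ones, and other protein-coding genes 21250 beside 58615. The part of this annotation in the shares was not tested.

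Several of the most abundant members had high intron shares. Rpl5 had 93.0% ± 1.56 of its TPM on retained_intron models, Rpl3 had 93.0% ± 2.35, Rpl10a had 90.7% ± 0.92 and Rpl10 had 85.5% ± 2.20 (SD, n = 3). Rps9, also among the 4 most abundant, had 59.7% ± 10.3, just under the members' median. For Rpl3 this left 2.84 ± 0.71 TPM on protein_coding models, fewer than for Rpl31, a member with a gene TPM of 20.9 ± 5.90 that had 17.7 ± 5.47 TPM on protein_coding models. Rps26, a low member, had the highest share, 98.6% ± 2.42, and Rpl35a had 86.1% ± 4.61. At the other end stood Rps15a with 12.8% ± 1.07, Rpl31 with 15.97% ± 2.93 and Rpl19 with 17.3% ± 13.6.

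Single models carried much of this. Rpl3-204, with 9 exons and 1877 bases, had 53.0 ± 10.5 TPM, and Rpl10-208, with 2 exons and 531 bases, had 50.2 ± 15.1 TPM (SD, n = 3). Across the members, gene TPM followed retained_intron TPM with Spearman's rho of 0.868 over 61 genes and protein_coding TPM with 0.350 over 76 genes. Gene TPM contains both as parts of its sum, so neither is independent of it. Over the 61 members that have such a model and no l suffix, the coefficient of variation was 72.3% for protein_coding TPM and 127% for retained_intron TPM. These models are often short pieces of a gene, and reads of unspliced RNA are counted only where an annotated model keeps that intron.

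**Figure D2:**
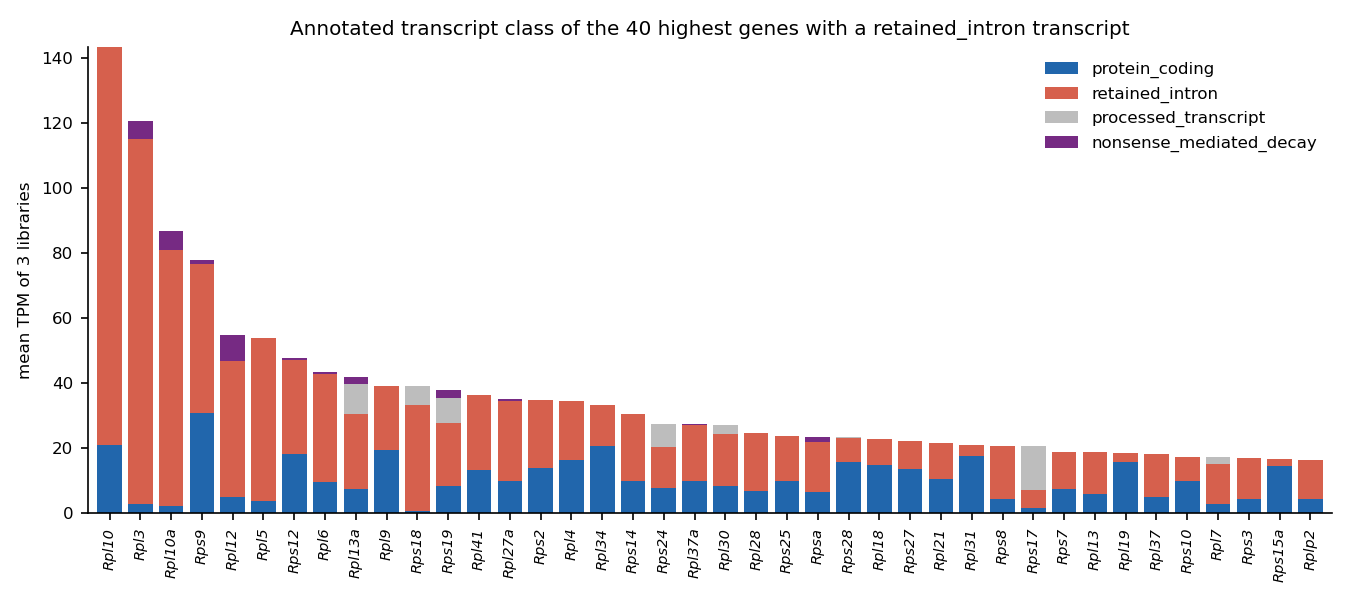
Mean TPM of the 3 libraries by annotated transcript class, stacked, for the 40 highest members that have a retained_intron model, ordered by mean TPM. In Rpl10, Rpl3, Rpl10a and Rpl5 most of the bar is retained_intron, while in Rpl31 and Rps15a most of it is protein_coding.

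Of the members, 29 house 56 annotated snoRNAs between them. Of the 56, 38 had 0 counts in the gene table. All 33 snoRNAs under 100 bases were at 0, and 18 of the 23 that are 100 bases or longer had counts. The second transcript table gave counts to 26 of the same 33 short snoRNAs, with sums of 454, 1636 and 3092 in replicates 1, 2 and 3. The gene table and the second table thus differ on whether these RNAs had counts. All 3 libraries carry recorded size limits of 250 and 400. The part of these limits in the counts of RNAs as short as snoRNAs, also beside their hosts, was not tested.

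The most counted of these snoRNAs lie in Rps3 on chromosome 7. Snord15b (chr7:99479563-99479707, minus strand, GRCm38) had 1376, 2582 and 4832 counts in replicates 1, 2 and 3, and Snord15a (chr7:99482785-99482932, minus strand) had 466, 990 and 1029. Their host Rps3 had 656, 706 and 518 counts. In scaled CPM, Snord15b was at 88.5, 152 and 354, while Rps3 was at 42.2, 41.7 and 38.0. On that scale Snord15b was lowest and Rps3 highest in replicate 1, and Snord15b was 2.10, 3.66 and 9.33 times its host in counts. Both are box C/D snoRNAs, the class that guides 2′-O-methylation of ribosomal RNA. The sequences are shown because the pair shares a host and a class but not its values, with C box TGATGA and D box CTGA in capitals.
Snord15b: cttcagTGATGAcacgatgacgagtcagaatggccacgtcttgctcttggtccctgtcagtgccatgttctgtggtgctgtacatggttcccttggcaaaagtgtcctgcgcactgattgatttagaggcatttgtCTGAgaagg
Snord15a: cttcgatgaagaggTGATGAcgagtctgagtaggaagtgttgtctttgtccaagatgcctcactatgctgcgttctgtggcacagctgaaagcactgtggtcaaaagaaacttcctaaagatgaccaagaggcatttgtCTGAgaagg
In a global alignment the pair was identical at 98 of 152 columns, or 64.5%.

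The others were of the H/ACA class, which guides pseudouridylation, or had no class in their symbol. Gm26448 in Rpsa had 551, 453 and 296 counts in replicates 1, 2 and 3. Snora7a in Rpl32 had 48.7, 19.7 and 24.6 counts, and Snora70 in Rpl10 had 41.4, 20.4 and 22.9. The last is a small amount beside the 1138 mean counts of Rpl10. These 3 were highest in replicate 1, where Snord15a and Snord15b were lowest. Snora52 in Rplp2, with 9.92, 13.9 and 15.9 counts, was lowest in replicate 1, and Snora21 in Rpl23, with 11, 6 and 15 counts, was highest in replicate 3. In the second table Snora7a had 139.7, 159.9 and 253 counts and Snora70 had 53.0, 35.0 and 86.9, so both were highest in replicate 3 there. Member genes that house a snoRNA had a median TPM of 21.6 ± 5.49, against 15.3 ± 3.70 in the 52 that do not (SD, n = 3), a difference of 0.46 ± 0.16 in median log2(TPM + 1). Over protein_coding transcripts only, the difference was -0.15 ± 0.13, so it turned its direction. Retained_intron models with a snoRNA inside held 24.9% ± 2.01 of the members' retained_intron TPM.

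**Figure D3:**
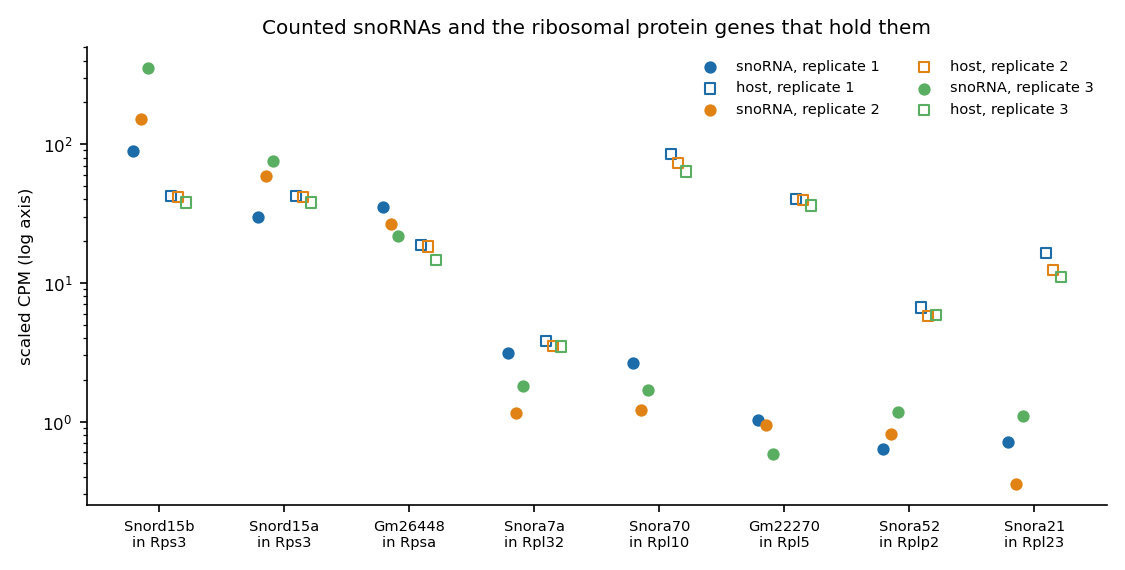
Scaled CPM on a log axis of 8 snoRNAs with at least 10 mean counts (filled circles) and of the ribosomal protein gene that holds each (open squares), 1 point per library. Snord15b lies above Rps3 in all 3 libraries and is highest in replicate 3, while Snora70 lies far below Rpl10.

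The members' pseudogenes with a -ps symbol had few counts, and most of these were on pseudogenes inside other genes. Pseudogenes under other symbols were not looked for, so the shares below leave them out. The annotation holds 297 genes with a -ps symbol, from 59 parents. Of them 194 had 0 counts in all 3 libraries and 33 were detected. Together they had 4.64% ± 0.288 of the counts of members and pseudogenes (SD, n = 3). The 89 pseudogenes that lie inside another gene's body held 81.2% ± 3.66 of pseudogene counts, and 28 of the 33 detected ones were among them. Of the 208 outside other genes 5 were detected.

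In 5 detected pseudogenes the mean TPM exceeded that of the parent, and all 5 lie inside other genes. Rpl36-ps2 had 25.05 TPM, against 10.1 for Rpl36, and lies on the strand opposite to Abr, a gene with 119 TPM. Rpl26-ps4 had 19.7 TPM, against 13.0 for Rpl26, opposite to Med15 with 153 TPM. Rpl23a-ps2 had 11.1 TPM, against 7.36 for Rpl23a, on the strand of Rabep1 with 49.99 TPM. Rps26-ps1 had 6.07 TPM, against 5.85 for Rps26, opposite to Wwp2 with 59.9 TPM. The sources used here do not state whether counting used strand, and the part of the surrounding transcripts in these counts was not tested.

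**Figure D4:**
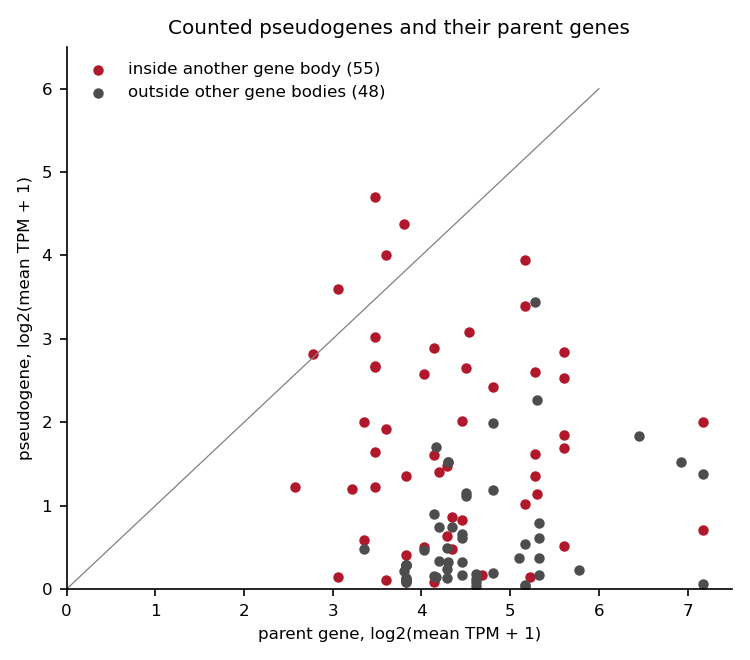
Mean log2(TPM + 1) of each -ps pseudogene with any count against that of its parent gene. Of these, 55 lie inside another gene body and 48 outside. The line marks equal levels. The points above it, Rpl36-ps2, Rpl26-ps4, Rpl23a-ps2 and Rps26-ps1 among them, are all of the first kind.

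Near-identical copies could also draw reads from the members. The posterior standard deviation of the read assignment, deposited with each count, had a median of 0.525% of the count over members. It passed 5% in 3 of them, with 12.1% in Rpl24, 7.91% in Rpl35 and 6.35% in Rpl23a. It was 4.29% in Rps23 and 4.01% in Rpl27. These 5 had the highest values among the members with at least 10 mean counts. An exon overlaps a gene on the opposite strand in 18 members, among them Rpl10a, Rpl12, Rpl5, Rps18, Rps27a and Rps2, and without stated strand use their reads cannot be told apart from those of the partner. A gene on the same strand overlaps 5 members, Rpl13a, Rpl19, Rps10, Rpl24 and Rpl36al.

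The 3 libraries did not hold the members in equal amounts. In scaled CPM, 66 of the 77 members that passed edgeR's filter on low counts were higher in replicate 1 than the mean of replicates 2 and 3, against 54.1% of 11261 other protein-coding genes. In replicate 3, 65 of the 77 were below the mean of the other libraries, against 52.2% of the other genes. The median member was 0.27 higher in replicate 1 on the log2 scale, against 0.03 for other protein-coding genes and 0.08 for mitochondrial ribosomal protein genes. The median member was at -0.21 in replicate 3, against -0.01 for other protein-coding genes. The mean set against replicate 3 contains replicate 1, so the values of replicate 3 are not separate from those of replicate 1. Between replicates 2 and 3 alone, the median log2 ratio of replicate 2 over replicate 3 was 0.10 in members. In other protein-coding genes it was -0.02. With 1 library on one side, these ratios have no replicate check.

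The members' shift was larger on spliced models, a split that was not made for other genes. Over protein_coding transcripts the median log2 ratio of replicate 1 was 0.51 over 72 members, and over retained_intron transcripts it was 0.19 over 59 members, counting those with at least 10 mean counts. By gene, it was 0.50 in the 16 members with no retained_intron model, 0.36 in the 19 with a retained share under 50% and 0.20 in the 42 with a higher share. The mitochondrial genome took 0.0926% of counts in replicate 1, 0.0407% in replicate 2 and 0.0343% in replicate 3. The 6 macrophage markers were all higher in replicate 1, with a median log2 ratio of 0.48. The ratio was 0.24 for 12 genes of translational control, of which 9 were higher in replicate 1. It was 0.07 for 18 other TOP mRNAs and -0.08 for 20 ribosome assembly factors. The part of RNA from outside the chromatin in the members' shift was not tested.

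The 3 members that varied most between libraries were low ones. Rpl24, on the large subunit's surface, had 4.71, 2.02 and 1.53 scaled CPM in replicates 1, 2 and 3, a ratio of highest to lowest of 3.09. Rpl23a, near the exit of the peptide tunnel, had 4.06, 2.10 and 1.42, and Rpl35 had 3.91, 1.67 and 1.79. Each had under 50 mean counts, and these were the 3 with the least certain read assignment. Rps27 followed with a ratio of 2.33, and its mean of 22.1 TPM was above the members' median of 18.04. Among the members that varied least were Rpl14, at 6.59, 6.45 and 6.43 scaled CPM, and Rpl9, at 53.5, 55.0 and 52.3. The median biological coefficient of variation from edgeR was 0.171 over members, against 0.159 over other protein-coding genes.

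**Figure D5:**
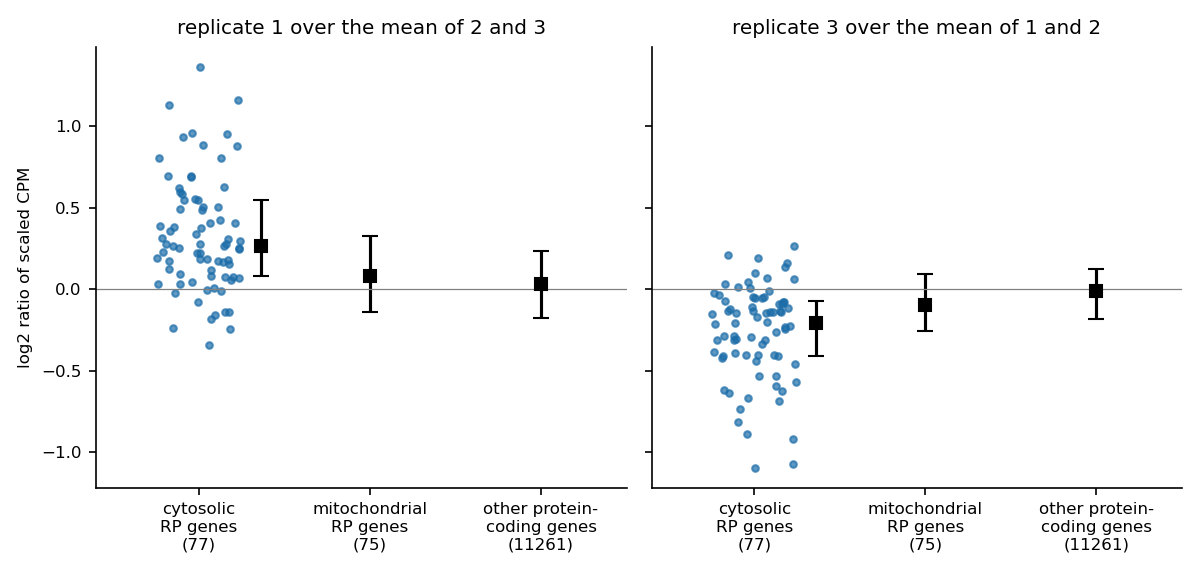
Log2 ratio of scaled CPM of replicate 1 over the mean of the other libraries (left) and of replicate 3 over the mean of the other libraries (right). Points are the 77 members, and squares with bars give the median and the quartiles of each set. The members' median is 0.27 on the left and -0.21 on the right, and that of other protein-coding genes lies at 0.03 and -0.01.

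The 2 quantifications deposited for each library gave the members unequal levels. The second transcript table put the median member at 23.4 ± 1.77 TPM, against 18.04 ± 5.19 in the gene table (SD, n = 3). The median log2 difference per member was 0.29 ± 0.15, with 0.11, 0.37 and 0.38 in replicates 1, 2 and 3. The largest difference was in Rps27l, which had 10.6 TPM in the second table, against 2.06 in the gene table. Rpl39 had 23.1, against 7.23, Rpl36 had 28.7, against 10.1, Rpl24 had 26.4, against 10.5, and Rps7 had 46.3, against 18.7. The order of members was kept in large part, with Spearman's rho of 0.876 over 81 genes that share reads.

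A few ribosomal proteins fall outside the symbol rule and were measured beside it. Fau, which carries Rps30, was at 23.1 ± 7.54 TPM, and Rps3a1 was at 11.8 ± 4.31 TPM (SD, n = 3). Rpl7l1 and Rpl22l1, paralogs of Rpl7 and Rpl22, were at 15.2 ± 4.16 and 8.02 ± 2.78 TPM. Rack1, a scaffold on the small subunit, was at 45.5 ± 11.3 TPM. All of these were detected, at levels within the range of the members. By TPM all were highest in replicate 1. In scaled CPM all were higher in replicate 1 than the mean of replicates 2 and 3, against 54.1% of other protein-coding genes.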

How the data were processed

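RNA-seq tables of 3 libraries were used. Per the file headers, each library has a gene table and a transcript table with estimated counts, TPM and the posterior standard deviation of the count (a number on the scale of counts), and a second transcript table with estimated counts and TPM. The authors' values were taken as deposited, on mm10 with GENCODE M21 per the deposited readmes. The sources used here do not give the programs, their versions or the use of strand.

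Estimated counts were rounded for edgeR 4.0.16 (TMM factors, filter on low counts, tagwise dispersion with an intercept only) and DESeq2 1.42.0 (size factors) in R 4.3.3. Python 3.11.15 was used for the rest. Scaling and dispersion were tested on simulated data. Log ratios used a pseudocount of 1 for TPM and of 0.1 for scaled CPM. Second-table values were summed by gene. With 1 group no test between conditions was possible, so values are means and SDs over libraries and carry no p-value. Of all counts, 1.16%, 0.459% and 0.351% fell on rows with no annotated gene and were left out.

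Named genes were the 10 highest and 10 lowest members by TPM, the extremes of spread, table difference, intron share and read assignment, all l-suffix members, and members with well-known roles. The members, lists and named genes were chosen with earlier results of these data known. A few members and related genes are not reported here by name.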

Additional observations from a re-analysis of the deposited data

How the results depend on the processing

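The 13 summaries were recomputed under 110 alternatives in all. No paired analysis was possible because there was only 1 group. With the second transcript table, median TPM was 23.4, the difference from mitochondrial ribosomal proteins 1.52, that from other protein-coding genes 2.93, large minus small subunit 0.23 (reversed), snoRNA hosts minus other members 0.19, the retained intron share 53.8%, its excess over other genes 9.34 points and the pseudogene share 5.78%. With TPM rescaled to protein-coding genes, median TPM was 67.5 and the mitochondrial difference 1.83. A pseudocount of 0.1 gave 1.87 against mitochondrial and 4.46 against other protein-coding genes, scaled CPM gave 0.85 and 2.34, and list means gave 1.49 and 2.31. With a minimum TPM of 0.1 in a library the difference from other protein-coding genes was 1.31, since genes at 0 left that list. For snoRNA hosts, scaled CPM gave 1.05, list means 0.71 and leaving out l-suffix members 0.31. Chosen after seeing the data, protein_coding transcripts only gave 1.18 for the mitochondrial difference, -0.15 for snoRNA hosts (reversed) and 0.50 for the replicate 1 ratio, and pseudogenes outside other genes gave a share of 0.905%. Beyond these alternatives' own construction, the cause was not tested. Leaving out 1 library gave 77 to 78 members detected, a median TPM of 15.2 to 20.4 and a replicate 3 ratio of -0.31 to -0.10. Depth limits what can be said of members near 0 counts.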

Other observations

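Genes that build or regulate ribosomes were present beside the ribosomal proteins. Of 20 ribosome assembly factors 19 were detected, with a median TPM of 8.42 ± 0.88 (SD, n = 3). Nop56 and Fbl, parts of the box C/D particle, were at 37.8 ± 8.84 and 17.0 ± 1.32 TPM, and Ncl, the nucleolar protein nucleolin, was at 37.3 ± 4.76. Bysl and Grwd1 were lowest, at 1.18 and 1.75 TPM.

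Of 18 other TOP mRNAs of translation all were detected, with a median TPM of 27.9 ± 1.87. The initiation factor Eif4a2 had 487, 409 and 308 TPM in replicates 1, 2 and 3, and the elongation factor Eef1a1 had 296, 227 and 140. Both were above every ribosomal protein gene in each library. Of 12 genes of translational control 10 were detected. Tsc1 and Tsc2, which restrain mTOR, were at 47.2 ± 4.25 and 43.6 ± 9.92 TPM, Larp1, which binds TOP tracts, was at 25.3 ± 7.44, and Eif4ebp1 was at 1.27 TPM.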
